A study of Mus musculus with 24 samples.

Results

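A set of 10 genes named for their response to glucocorticoids was followed in 24 newborn mouse lungs, out of 23418 genes in the deposited tables. They were Zbtb16, Hif3a, Fkbp5, Tsc22d3, Per1, Sgk1, Mt1, Mt2, Pdk4 and Errfi1, each found by its symbol in the 4 RNA-Seq tables of the study. All 10 were measured in each table and passed the filter on low values there. They were chosen by symbol with the mutant-over-control differences of their normalized counts in these same tables already in view, so the differences of these 10 genes are given as a description with no p-value of their own, and where they are counted against a threshold nothing is read from the count. Left lung lobes had been taken at postnatal day 2 (P2) and postnatal day 5 (P5) from mice labelled Sox9Cre; Vangl2f/f and Sox9Cre; Ror2f/f, and from control mice of the same days. The study asked how loss of Vangl2, a core planar cell polarity gene, or of Ror2, a Wnt receptor, alters the forming alveoli. Each of the 8 groups held 3 lungs, and each table set 3 mutants beside 3 controls of 1 line and 1 day. Controls carry the genotype label WT and titles that read Control(Vangl1/2) or Control(Ror2), with no allele named. Sox9-Cre deletes a floxed gene in the distal lung epithelium, whereas RNA came from the whole lobe, which also holds mesenchyme, vessels and blood cells. In such bulk RNA, a change in the number of cells of a type and a change in RNA per cell cannot be told apart.

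Glucocorticoids are steroid hormones of the adrenal cortex that enter cells and bind the glucocorticoid receptor, the product of Nr3c1. The receptor is held in the cytoplasm by HSP90 and its co-chaperones until it is bound by hormone, and then moves to the nucleus, where it binds DNA and raises or lowers transcription of many genes. In the lung these hormones are known for promoting thinning of the mesenchyme, surfactant production and sodium uptake around birth. Fkbp5 encodes a co-chaperone that lowers the receptor's affinity for hormone and closes a feedback loop. Zbtb16 (PLZF) and Tsc22d3 (GILZ) encode transcriptional regulators, Hif3a encodes a hypoxia-inducible factor subunit, and Per1 belongs to the circadian clock. Sgk1 encodes a kinase that increases sodium transport, and Pdk4 a kinase that inhibits pyruvate dehydrogenase in the mitochondria. Errfi1 (MIG6) encodes an inhibitor of the EGF receptor, and Mt1 and Mt2 the metal-binding metallothioneins.

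The receptor binds a near-palindrome with a short spacer in its middle, and metallothionein genes also carry sites for the zinc sensor MTF1, termed metal response elements. RefSeq promoters (GRCm38.p6, 250 bases before to 50 bases after a transcription start) were at hand for 9 of the 10 genes, 18 promoters in all, and Zbtb16 was not among them. The glucocorticoid response element was searched on both strands as GNACANNNTGTNC. It was found in 2 of the 18 promoters, 1 of Mt1 and 1 of Sgk1, against 0.475% of all 32851 mouse promoters of the same length. The sequences of those promoters and of Mt2 are shown because Mt1 and Mt2 moved together from lung to lung, while the groups of Sgk1 overlapped in every table. Capitals mark metal response elements, TGCACNC or TGCGCNC on either strand, in Mt1 and Mt2, and the glucocorticoid response element in Sgk1.
Mt1, chr8:94178839-94179138, plus strand: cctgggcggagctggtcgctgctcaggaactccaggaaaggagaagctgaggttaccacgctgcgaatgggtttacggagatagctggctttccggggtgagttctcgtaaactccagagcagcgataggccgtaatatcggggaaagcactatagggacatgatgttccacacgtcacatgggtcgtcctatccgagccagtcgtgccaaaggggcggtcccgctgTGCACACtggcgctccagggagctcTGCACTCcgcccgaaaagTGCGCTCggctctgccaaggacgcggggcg
Mt2, chr8:94172368-94172667, plus strand: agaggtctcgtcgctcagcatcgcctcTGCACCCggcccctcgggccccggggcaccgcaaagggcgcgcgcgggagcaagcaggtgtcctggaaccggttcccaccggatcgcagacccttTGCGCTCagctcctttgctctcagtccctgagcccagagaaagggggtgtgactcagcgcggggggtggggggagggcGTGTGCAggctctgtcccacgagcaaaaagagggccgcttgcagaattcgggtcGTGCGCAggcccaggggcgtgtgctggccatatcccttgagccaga
Sgk1, chr10:21993640-21993939, plus strand: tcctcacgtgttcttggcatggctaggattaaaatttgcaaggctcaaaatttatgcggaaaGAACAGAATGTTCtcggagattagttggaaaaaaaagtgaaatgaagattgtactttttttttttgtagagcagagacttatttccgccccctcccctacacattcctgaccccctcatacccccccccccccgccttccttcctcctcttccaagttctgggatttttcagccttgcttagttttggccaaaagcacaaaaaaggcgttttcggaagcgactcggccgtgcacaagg
The Mt1 promoter held 3 metal response elements and that of Mt2 held 4, and at least 1 was found in 5 of the 18 promoters (the others in Hif3a, Sgk1 and Per1), a share near the 25.704% of all promoters. In Mt1 the glucocorticoid response element, GGACATGATGTTC, began 94 bases before the start, and in Sgk1 it read GAACAGAATGTTC and began 188 bases before the start. The shorter receptor motif TGTTCT, which shares letters with the longer motif, occurred in 4 of the 18 promoters and in 18.974% of all promoters. The E-box CACGTG, bound by clock factors, was found in 1 promoter each of Per1, Fkbp5 and Sgk1, and in 7.15% of all promoters. The cyclic AMP response element TGACGTCA occurred once, in Errfi1, against 1.79% of all promoters. These matches describe letters in the window only.

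Lungs carried between 16178031 and 21546673 reads on genes, apart from the first control of the Ror2 P5 table with 13823693. That lung had no reads on chromosomes 6 to 9 and X and few on chromosome 5, and 48.7% of its genes were listed at 0, against 22.2% to 26.3% elsewhere. Its values on those chromosomes were set to missing, which left 2 controls for 6 of the 10 genes in that table (Zbtb16, Hif3a, Tsc22d3, Mt1, Mt2 and Pdk4). Values are normalized counts, reads divided by a size factor made within each table, so levels are compared only within a table, and not between genes since they are not per length. As a check of the labels, Vangl2 stood at 369, 314 and 292 normalized counts in the Vangl2 P5 controls and 169.5, 148 and 166 in the mutants, a log2 difference of -1.00 ± 0.18 (SE), limma adjusted p = 0.0604. In the Vangl2 P2 table the difference of Vangl2 was -0.39 ± 0.18 (limma adjusted p = 0.241). For Ror2 it was -0.38 ± 0.16 at P2 and -0.16 ± 0.20 at P5 in the Ror2 tables (limma adjusted p = 0.25 and 0.692). In the tables of the other line, Ror2 differed by -0.01 ± 0.12 in Vangl2 P2 and -0.48 ± 0.25 in Vangl2 P5. Vangl2 differed by -0.21 ± 0.14 in Ror2 P2 and -0.28 ± 0.22 in Ror2 P5. The deleted gene passed the limma threshold in no table. The check did not tell the lines apart in Ror2 P5. In Ror2 P2 the differences of Ror2 and Vangl2 were close to each other beside their standard errors. All 3 Vangl2 P5 mutants and all 3 Ror2 P2 mutants carry a genotype entry that names the other gene. For these 6 lungs the titles were followed. The sexes were not balanced by Xist, the RNA of the inactive X, which was high in 3 of 3 Vangl2 P5 controls and in 0 of 3 Ror2 P5 mutants, and its part in the results was not tested.

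In the mutants of both lines at P2, all 10 genes had a mean above that of the controls on the log2 scale. The median log2 difference of the 10 genes was 1.55 in the Vangl2 P2 table and 0.53 in the Ror2 P2 table, with the median over all genes tested at 0.00 and -0.01. At P5 it was 0.88 in the Vangl2 table, where 9 of the genes were above the controls, and 0.11 in the Ror2 table, where 7 were, with 0.00 over all genes in both. Zbtb16 and Hif3a, both transcription factor genes, had the 2 largest differences of the 10 in 3 of the tables, and in the Vangl2 P2 table Pdk4 came between them. The groups did not overlap, with the mutants higher, for 6 genes in each Vangl2 table and for 2 in each Ror2 table. Over all genes this happened for 14.6% in the Vangl2 P2 table, 13.2% in Vangl2 P5, 13.4% in Ror2 P2 and, in Ror2 P5, 13.7% of genes with 6 lungs and 19.3% of genes with 5. Differences of the 10 genes chose them, so nothing is read from these counts.

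The counts in this paragraph use the same differences that chose the 10 genes, so they describe the choice and are no test of it. The limma test on all genes passed none of the 10 genes in the Vangl2 P2 table, where it called 626 of 17448 genes (3.59%). It passed 2, Zbtb16 and Hif3a, in Vangl2 P5 (0.563% of all genes), and none in Ror2 P2 (0.0%) or Ror2 P5 (0.122%). At an unadjusted p under 0.05 the counts of the 10 genes were 9, 6, 4 and 3 in the same order of tables, against 22.5%, 18.8%, 19.3% and 18.4% of all genes. With edgeR on the recovered reads the count was 0 in each P2 table (4.42% of all genes in Vangl2 P2 and 0.0% in Ror2 P2), and with DESeq2 it was 5 in Vangl2 P2 (10.4%) and 3 in Ror2 P2 (4.06%). Fitted with the replicate number as a block, which treats same-numbered lungs as pairs, the Vangl2 P5 count was 4, with Tsc22d3 and Mt1 added. In that fit 8.95% of all genes were called, and no label gives the pairing. Single lungs moved these counts. Without Vangl2 P2 mutant 3 the count in that table was 5 (Zbtb16, Hif3a, Fkbp5, Tsc22d3 and Pdk4), and without its mutant 1 it was 1 (Pdk4). Without Vangl2 P5 mutant 3 no gene was called there, and without mutant 1 only Zbtb16 was. Without Ror2 P2 mutant 2 the count was 5, without Ror2 P5 mutant 3 it was 3, and without Ror2 P5 mutant 1 it was 1.

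**Figure D1:**
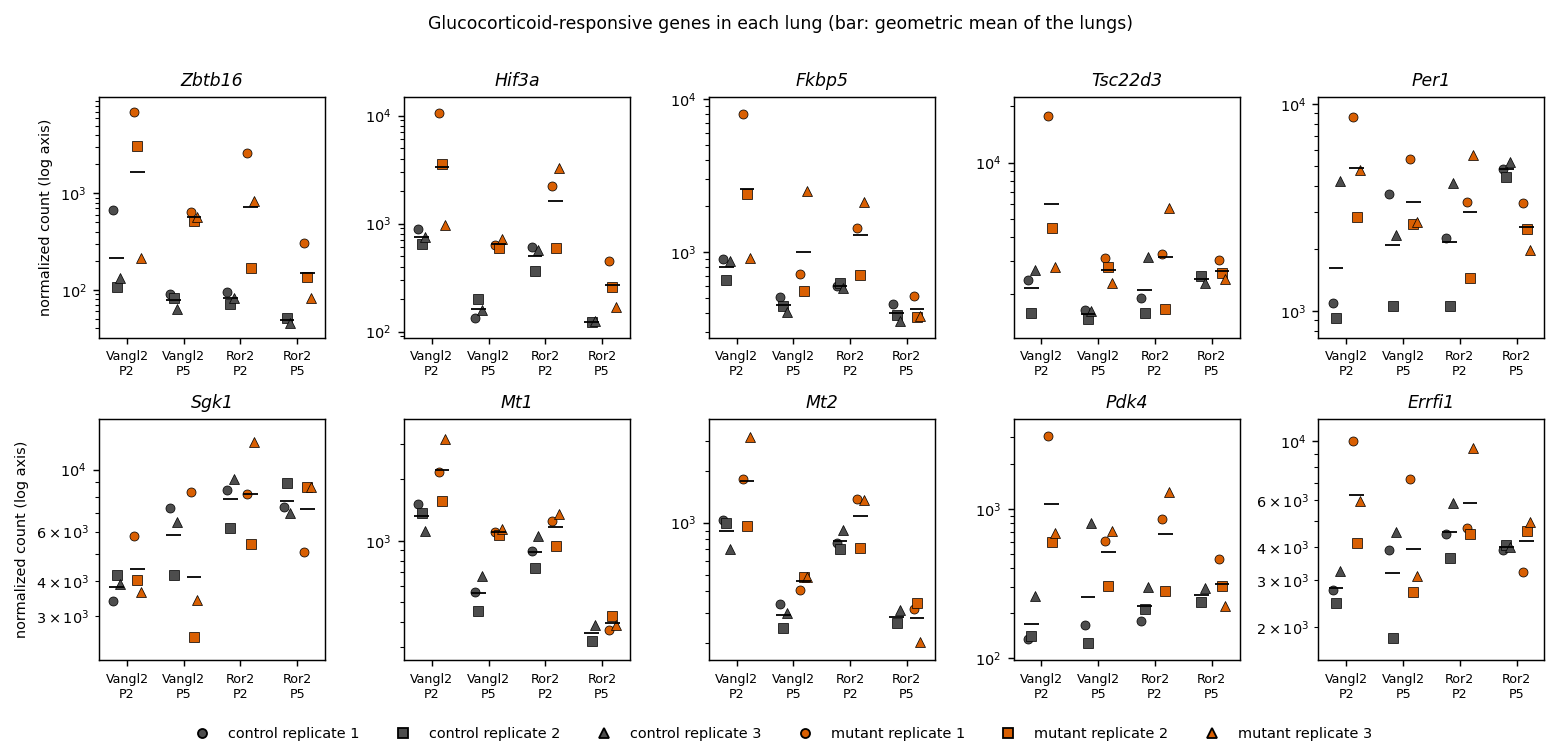
Normalized count (log axis, a separate scale for each gene) of the 10 glucocorticoid-responsive genes in each lung of the 4 tables, with controls in grey, mutants in orange, a marker shape for each replicate number and a bar at the geometric mean of the group. Zbtb16 and Hif3a were above every control in all 3 mutants of the Vangl2 P5 and Ror2 P5 tables, and in the Vangl2 P2 table mutant 1 was the highest lung for 8 of the 10 genes.

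Zbtb16 (chr9:48651797-48836225, GRCm38.p6) had the largest log2 difference of the 10 genes in each of the 4 tables. In the Vangl2 P2 table its normalized counts were 667, 108 and 134 in the controls and 6915, 3105 and 216 in the mutants. The first 2 mutants were far above the controls, but the third lay among them, and the log2 difference was 2.96 ± 1.23 (SE, n = 3 and 3, as in all that follow unless stated). At P5 the same line gave 91.2, 83.5 and 63.5 in the controls and 636, 514 and 564 in the mutants. All 3 mutants were then close to each other and far from the controls, with a log2 difference of 2.84 ± 0.21. In the Ror2 P2 table the controls had 94.9, 71.7 and 82 and the mutants 2586, 169.7 and 828, a log2 difference of 3.10 ± 0.86. Every mutant was above every control, and the mutants themselves spread widely. In Ror2 P5 the 2 controls had 51.2 and 45.6 and the mutants 308, 136 and 82.1, again without overlap (log2 difference 1.62 ± 0.51, n = 2 and 3).

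Hif3a (chr7:17030993-17062427) followed Zbtb16 closely. It had 888, 647 and 751 normalized counts in the Vangl2 P2 controls and 10648, 3560.1 and 959.5 in the mutants, a log2 difference of 2.13 ± 0.73. The third mutant exceeded the highest control only narrowly. In the Vangl2 P5 table the controls had 134, 199 and 159 and the mutants 629, 599 and 724. The spread within either group was small beside the log2 difference of 1.99 ± 0.19. The Ror2 P2 controls had 603, 360.3 and 566 and the mutants 2225, 594 and 3284 (log2 difference 1.71 ± 0.59), and the second mutant lay within the controls. In Ror2 P5 the values were 121 and 126 in 2 controls and 450.3, 258 and 169 in the mutants, with no overlap and a log2 difference of 1.12 ± 0.38 (n = 2 and 3).

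Fkbp5 (chr17:28398753-28486149), the gene for the feedback co-chaperone, was at 898, 652 and 873 normalized counts in the Vangl2 P2 controls and 7924, 2396 and 916 in the mutants. The log2 difference of 1.70 ± 0.66 came from the first 2 mutants, since the third was about level with the highest control. In the Vangl2 P5 table the controls had 506, 441 and 408 and the mutants 713, 558 and 2493. Here the third mutant alone stood far out, as it did for lymphocyte markers, and the log2 difference of 1.15 ± 0.49 was 0.49 without it. The Ror2 P2 controls were close together at 602, 625 and 582, below the mutants at 1440.3, 710.2 and 2124 (log2 difference 1.10 ± 0.35). In Ror2 P5 the groups overlapped, with 458, 389.6 and 356 in the controls and 519, 375 and 384 in the mutants (log2 difference 0.08 ± 0.15).

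Tsc22d3 (chrX:140539528-140600522), whose product GILZ binds and restrains inflammatory transcription factors, had 2368, 1576 and 2679.9 normalized counts in the Vangl2 P2 controls and 17741, 4486 and 2783 in the mutants (log2 difference 1.49 ± 0.60). As with Fkbp5, the first mutant was far above the rest and the third only just above the controls. The Vangl2 P5 controls had 1634, 1467 and 1613 and the mutants 3087, 2764 and 2295, a log2 difference of 0.78 ± 0.15 with no overlap. In the Ror2 P2 table the controls had 1903, 1576 and 3126 and the mutants 3272, 1651 and 5702. These groups overlapped, and the log2 difference was 0.57 ± 0.45. The Ror2 P5 groups also overlapped, at 2491 and 2298 in 2 controls and 3016, 2581 and 2413 in the mutants (log2 difference 0.15 ± 0.11, n = 2 and 3).

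Per1 (chr11:69095108-69109965), a repressor within the clock that glucocorticoids also induce directly, varied widely among the controls in 3 of the tables. In the Vangl2 P2 table the controls had 1087, 919.9 and 4231 normalized counts and the mutants 8683, 2856 and 4801 (log2 difference 1.60 ± 0.60), and the third control was above the second mutant. The Vangl2 P5 controls had 3658, 1054 and 2335 and the mutants 5403, 2630.2 and 2676, with overlap and a log2 difference of 0.69 ± 0.45. In the Ror2 P2 table both groups spread over a wide range, with 2253, 1058 and 4168 in the controls and 3369.6, 1434 and 5667 in the mutants (log2 difference 0.49 ± 0.61). Ror2 P5 was the exception: the controls had 4859.6, 4438 and 5269 and the mutants 3315, 2489 and 1962. Per1 was thus lower in all 3 mutants there, with a log2 difference of -0.94 ± 0.17, the only one of the 10 genes to lie below the controls without overlap in any table (12.3% of all genes with 6 lungs did so in that table).

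Of the kinase genes, Pdk4 (chr6:5483351-5496278), which spares glucose during fasting, had 135, 140.4 and 262 normalized counts in the Vangl2 P2 controls and 3042, 603 and 683 in the mutants. All 3 mutants lay above the controls, and the log2 difference was 2.65 ± 0.59. In the Vangl2 P5 table the third control was the highest lung of all, with 166, 127 and 802 in the controls and 610.3, 307 and 710.4 in the mutants. The log2 difference of 0.99 ± 0.65 was 1.81 without that control. The same control was the highest lung for adipocyte and cardiac muscle markers. Summed adipocyte markers were 49.3, 15.3 and 871 in the controls and 33.6 to 231 in the mutants. Summed cardiac muscle markers were 1906, 1398 and 5078 in the controls and 2065 to 3786 in the mutants. The part of such tissue in the values of Pdk4 was not tested. The Ror2 P2 controls had 177, 215 and 299 and the mutants 847, 284 and 1294 (log2 difference 1.59 ± 0.52), with the second mutant among the controls. In Ror2 P5 the groups overlapped, at 239 and 296 in 2 controls and 461, 305 and 222 in the mutants (log2 difference 0.24 ± 0.29, n = 2 and 3).

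Sgk1 (chr10:21882184-21999903) differed from the other genes in that its groups overlapped in all 4 tables. At P2 in the Vangl2 line it had 3382, 4201 and 3913 normalized counts in the controls and 5773, 4017 and 3662 in the mutants (log2 difference 0.20 ± 0.18). At P5 the values were 7287, 4192 and 6516 in the controls and 8326, 2512 and 3406 in the mutants. The first mutant was the highest lung and the other 2 the lowest, which gave a log2 difference of -0.49 ± 0.42. In the Ror2 line the P2 values were 8419, 6169 and 9240.0 in the controls and 8151, 5402 and 12554 in the mutants, and the P5 values 7322, 8959.6 and 6968 and 5082, 8644 and 8626. The log2 differences were 0.07 ± 0.30 and -0.09 ± 0.21, each smaller than its standard error.

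Errfi1 (chr4:150853796-150868889), the EGF receptor inhibitor, was at 2763, 2464 and 3243 normalized counts in the Vangl2 P2 controls and at 10006, 4136 and 5981 in the mutants, without overlap (log2 difference 1.16 ± 0.29). It overlapped in the other tables. The Vangl2 P5 controls had 3897, 1824 and 4572 and the mutants 7229, 2711 and 3124, a log2 difference of 0.30 ± 0.44. In the Ror2 P2 table only the third mutant exceeded the controls, with 4484, 3646 and 5892 in the controls and 4709.6, 4479 and 9457 in the mutants. In Ror2 P5 the controls had 3896, 4094 and 4021 and the mutants 3238, 4606 and 4986. The log2 differences in the Ror2 line were 0.35 ± 0.31 at P2 and 0.07 ± 0.15 at P5.

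The metallothionein genes Mt1 (chr8:94178883-94180327) and Mt2 (chr8:94172618-94173567) are neighbouring paralogues, and how reads shared between them were counted is not given in the sources used here. Mt1 had 1523, 1375 and 1118 normalized counts in the Vangl2 P2 controls and 2178, 1575 and 3169.9 in the mutants, without overlap (log2 difference 0.74 ± 0.24). For Mt2 the controls had 1030.1, 1001 and 701 and the mutants 1794, 958 and 3127, and the second mutant lay among the controls (log2 difference 0.96 ± 0.38). For both, the third mutant was the highest lung, the one in which Zbtb16, Hif3a, Fkbp5 and Tsc22d3 were near the controls. In the Vangl2 P5 table Mt1 was at 563, 453 and 676 in the controls and 1099.7, 1070.0 and 1149 in the mutants, which agreed closely among themselves. Mt2 was at 337, 243 and 298 in the controls and 408, 484 and 484 in the mutants. Neither overlapped, and the log2 differences were 0.99 ± 0.17 for Mt1 and 0.65 ± 0.18 for Mt2. The Ror2 P2 values of Mt1 were 895, 737 and 1053 in the controls and 1249, 939 and 1348 in the mutants, and those of Mt2 were 758, 702 and 902 and 1370.4, 716 and 1358. Both overlapped through the second mutant, with log2 differences of 0.39 ± 0.17 and 0.49 ± 0.25. In Ror2 P5, Mt1 had 324 and 386 in 2 controls and 367, 429 and 387 in the mutants, and Mt2 had 262 and 311 and 314, 343 and 203. The log2 differences were 0.15 ± 0.13 and -0.03 ± 0.24 (n = 2 and 3), and the groups overlapped.

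Set out lung by lung, the mutants of a group were unequal. In the Vangl2 P2 table the median log2 difference of the 10 genes from the control mean was 2.73 in mutant 1, 0.94 in mutant 2 and 0.73 in mutant 3. Mutant 1 was above every control for 10 of the 10 genes, mutant 2 for 7 and mutant 3 for 8. In the Ror2 P2 table the medians were 0.73 in mutant 1, 0.03 in mutant 2 and 1.42 in mutant 3. Mutant 2 was the lowest of the 3 mutants for 10 of 10 genes, and mutant 3 was above every control for 10 of 10. The Vangl2 P5 mutants were nearer to each other, with medians of 1.08, 0.54 and 0.89, as were those of Ror2 P5 with 0.24, 0.20 and 0.07.

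**Figure D2:**
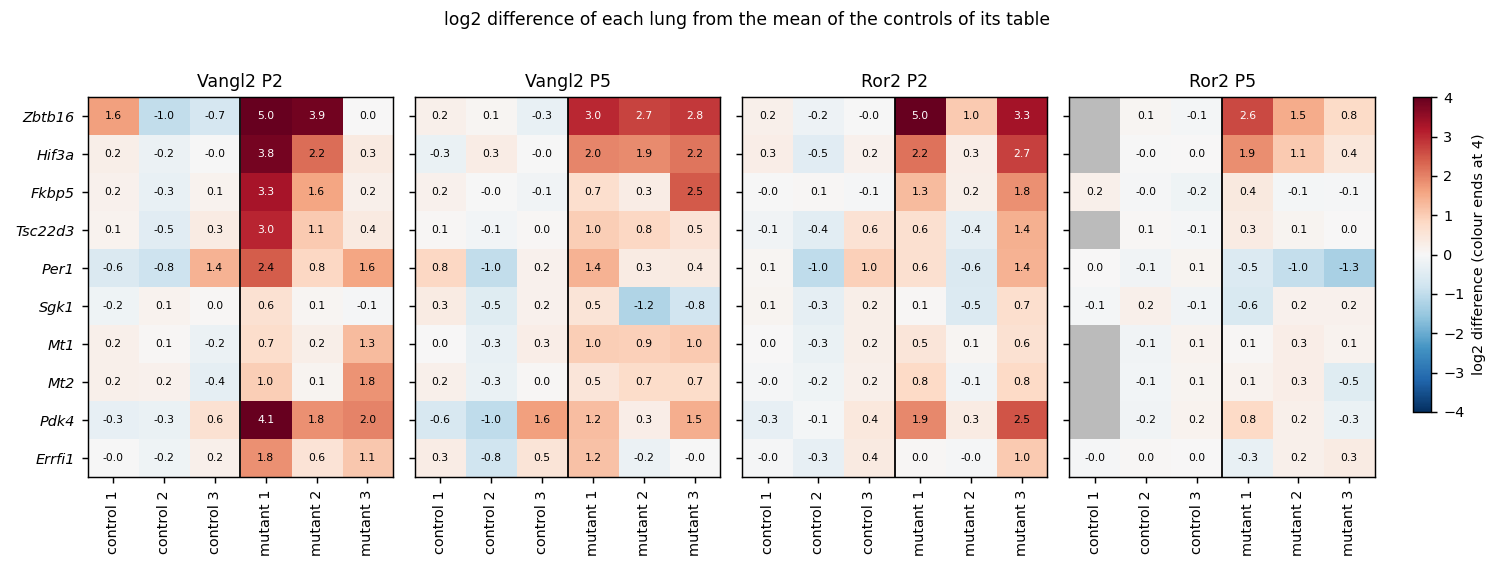
Difference of each lung from the mean of the controls of its table on the log2(normalized count + 1) scale, for the 10 genes (rows) and the 6 lungs of each table (columns). Red is above the controls, blue below, grey missing. The first Vangl2 P2 mutant is the darkest column, the second Ror2 P2 mutant stays near the controls, and in Ror2 P5 the strongest red is in Zbtb16 and Hif3a, with Per1 blue.

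The spread between lungs of a group was also larger for these genes than for genes at large. Among the Vangl2 P2 mutants the median SD of the 10 genes on the log2 scale was 1.08, against 0.21 for the 13255 genes with a mean of at least 50 normalized counts. In the Ror2 P2 mutants it was 0.85 against 0.16. The controls of those tables also varied more in these genes, with 0.28 against 0.11 in Vangl2 P2 and 0.33 against 0.13 in Ror2 P2. At P5 the medians in the mutants were 0.40 against 0.24 in the Vangl2 line and 0.39 against 0.14 in the Ror2 line. No test was made of these spreads, since the group differences that chose the genes rest on the same lungs.

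Around their group means, some of the genes varied together, without falling into separate sets. Over 23 lungs in 8 groups, with the first Ror2 P5 control left out, Pearson's r was 0.86 between Zbtb16 and Hif3a (Spearman's rho 0.78), 0.87 between Hif3a and Tsc22d3 (rho 0.60) and 0.81 between Hif3a and Fkbp5 (rho 0.69). For Sgk1 and Errfi1 r was 0.87 (rho 0.88), and Per1 lay nearer to Errfi1 (r = 0.72) than to Zbtb16 (r = 0.22). Tsc22d3 and Pdk4 varied with Hif3a and also with Per1 and Errfi1. For Tsc22d3, r was 0.67 (rho 0.79) to Per1 and 0.58 to Errfi1. For Pdk4 it was 0.69 to Tsc22d3, 0.62 to Hif3a, 0.60 to Fkbp5, 0.63 to Per1 and 0.63 to Errfi1. Between the metallothionein genes r was 0.86 (rho 0.78). Between Mt1 or Mt2 and Zbtb16, Hif3a or Fkbp5, r ranged only from -0.16 to 0.04. Without the 2 lungs farthest from the median of the 10 genes (Vangl2 P2 mutant 1 and Ror2 P2 mutant 2), r was 0.79 for Zbtb16 and Hif3a, 0.77 for Hif3a and Tsc22d3, 0.87 for Sgk1 and Errfi1 and 0.85 for Mt1 and Mt2. The values are descriptive: the size factors of the lungs of a table were made together, and 45 pairs were computed.

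Genes elsewhere in the table followed the mean of the 10 genes from lung to lung. With each table centred on its own mean, so that mutant and control differences stay in, Klf15 came nearest of 12649 genes (r = 0.97, rho = 0.96, 23 lungs). It encodes a transcription factor of amino acid and glucose metabolism and is itself a known glucocorticoid target. Next were Gdpd1 (r = 0.95), Prdx6 (r = 0.95), which encodes an antioxidant enzyme that also turns over surfactant phospholipid, Tinagl1 (r = 0.95) and Scnn1a (r = 0.94), a subunit of the epithelial sodium channel. Without Vangl2 P2 mutant 1 and Ror2 P2 mutant 3, the lungs farthest from the median, these 5 values lay between 0.90 and 0.94. Klf15 had 301, 239.9 and 481 normalized counts in the Vangl2 P2 controls and 3022, 849 and 488 in the mutants, the same order of mutants as for Hif3a. With each group centred on its own mean, which removes the differences between mutants and controls, the nearest were Gata2 (r = 0.96), Klf15 (r = 0.94), Alas1 (r = 0.94), Baiap2 (r = 0.92) and Tcn2 (r = 0.91). Alas1 encodes the first enzyme of heme synthesis and Tcn2 the carrier of vitamin B12. Without Vangl2 P2 mutant 1 and Ror2 P2 mutant 2 these lay between 0.84 and 0.93.

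**Figure D3:**
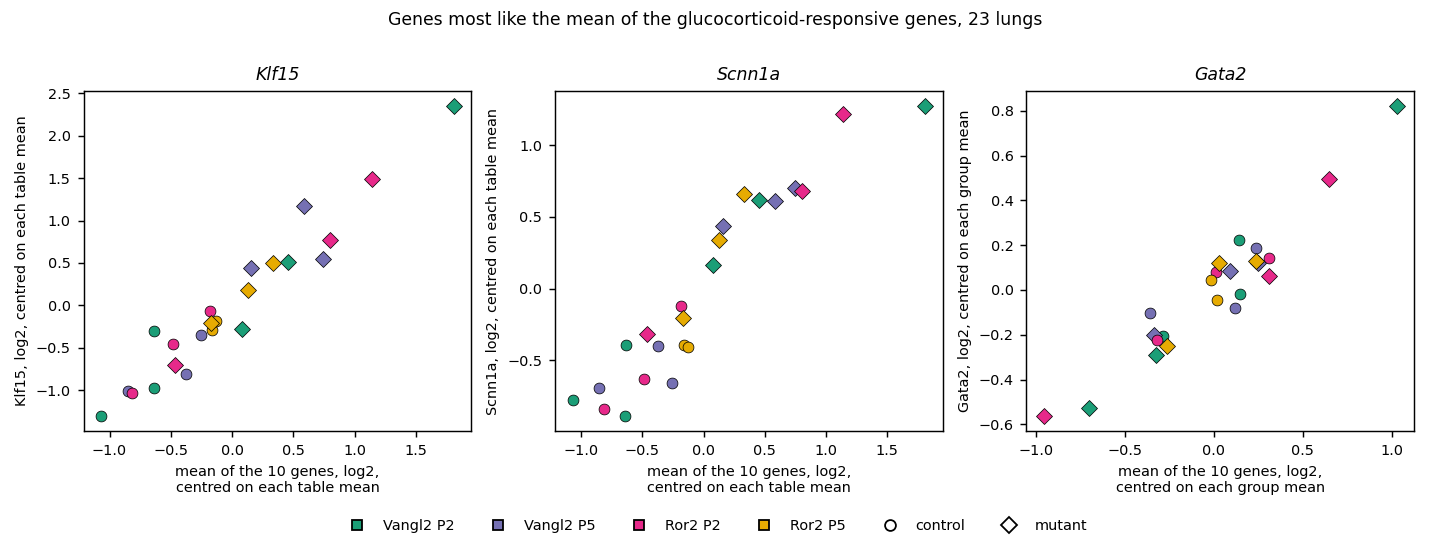
Level of Klf15, Scnn1a and Gata2 against the mean of the 10 glucocorticoid-responsive genes in 23 lungs, both on the log2(normalized count + 1) scale, with circles for controls, diamonds for mutants and a colour for each table. Klf15 and Scnn1a are centred on each table and Gata2 on each group. The points lie along a line in all 3 panels, and the Vangl2 P2 mutant at the upper right is mutant 1.

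Upstream of the 10 genes, the receptor itself was close to even. Nr3c1 had 4577, 4628 and 4244 normalized counts in the Vangl2 P2 controls and 3837, 4845 and 4571 in the mutants. Its log2 differences were -0.03 ± 0.11, -0.25 ± 0.17, 0.15 ± 0.07 and -0.07 ± 0.09 in the Vangl2 P2, Vangl2 P5, Ror2 P2 and Ror2 P5 tables, none past the threshold by limma (lowest limma adjusted p = 0.297). Nr3c2, the mineralocorticoid receptor gene, lay between -0.10 and 0.19, with no call either. The HSP90 genes Hsp90aa1 and Hsp90ab1 were not called in any table, and their differences ran from -0.37 ± 0.12 (Hsp90aa1 in Ror2 P2, limma adjusted p = 0.206) to 0.13 ± 0.36 (Hsp90aa1 in Vangl2 P5, limma adjusted p = 0.88).

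The enzymes that make and remove active hormone inside cells differed more. Hsd11b1, which regenerates active corticosterone, had 857, 728 and 1049.7 normalized counts in the Vangl2 P2 controls and 2421, 2064 and 1359 in the mutants. It rose there by 1.12 ± 0.22 on the log2 scale (limma adjusted p = 0.0398, and 8.03e-05 to 0.186 over the alternatives, with 0.0576 under the replicate block). In Vangl2 P5 the controls had 771, 1049 and 989.6 and the mutants 1892, 1249 and 1830.0. The difference was 0.81 ± 0.20 with limma adjusted p = 0.106, or 0.0442 in the fit blocked by replicate number. The Ror2 differences were 0.99 ± 0.41 at P2 and 0.46 ± 0.12 at P5 (limma adjusted p = 0.253 and 0.148). Hsd11b2, which inactivates the hormone, had negative differences of -0.89 ± 0.36, -0.72 ± 0.32, -0.88 ± 0.38 and -0.16 ± 0.25 in the same order of tables, and none passed (lowest limma adjusted p = 0.193). Of the 19 genes listed as receptor, chaperones and steroid enzymes, Hsd11b1 in the Vangl2 P2 table was the only call by limma without the block, and Hsd11b1 in Vangl2 P5 the only one with it. On the recovered reads edgeR called 1 and DESeq2 2 of the list in Vangl2 P2, and both called 0 in Ror2 P2 (7 at an unadjusted p under 0.05).

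A list of 28 further genes that glucocorticoids are known to induce was positive throughout the Vangl2 P2 table. All 28 had positive log2 differences there, with a median of 1.06 against 0.00 over all genes. For 20 of them every mutant was above every control, as for 14.6% of all genes. The list was chosen with earlier results of these data known, so it is no independent evidence for the 10 genes. Limma called 3.59% of all genes in this table. By the limma test 6 rose: Il1r2, the decoy interleukin-1 receptor, by 3.24 ± 0.44, Irs2, an adaptor of the insulin receptor, by 1.42 ± 0.29, Scnn1a by 1.37 ± 0.27, the repressor gene Bcl6 by 1.02 ± 0.15, Anxa1, whose protein dampens inflammation, by 0.86 ± 0.13 and the cell cycle inhibitor gene Cdkn1c by 0.57 ± 0.12. Their limma adjusted p ran from 0.0286 for Il1r2 to 0.0457 for Cdkn1c. Il1r2 had 24.2, 12.3 and 37.4 normalized counts in the controls and 336, 149 and 212 in the mutants, and Scnn1a had 6939.8, 5308 and 4924 and 21955, 13953 and 10211. All 3 mutants were above every control for both. Lung by lung, the median difference of the 28 genes from the control mean was 1.85, 0.61 and 0.45 in mutants 1 to 3. The medians of the 10 genes had the same order.

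In the other tables the same list was less uniform. In Vangl2 P5, 23 of 28 were positive (median 0.41), and Scnn1a rose from 3676, 2998 and 3082 in the controls to 7888, 6564 and 7420.2 in the mutants, by 1.17 ± 0.15 (limma adjusted p = 0.0202). It was the only call without the block, where 0.563% of all genes were called, against 8.95% with the block. In the blocked fit 7 were called, among them Klf15 (1.44 ± 0.26 unblocked, limma adjusted p = 0.0615, blocked 0.00885), Nfkbia, the NF-kappa-B inhibitor gene (0.74 ± 0.19, limma adjusted p = 0.115, blocked 0.0219) and Anxa1 (0.60 ± 0.14, limma adjusted p = 0.097, blocked 0.0239). In Ror2 P2, 23 of 28 were positive (median 0.46). None was called by limma or edgeR, 6 were called by DESeq2, and 9 had an unadjusted p under 0.05. Map3k6, a stress kinase gene, had the largest difference, 1.30 ± 0.51 (limma adjusted p = 0.242). In Ror2 P5, 17 of 28 were positive (median 0.11) and none was called by limma, with 8 at an unadjusted p under 0.05, and the largest difference among genes of at least 50 normalized counts was 0.80 ± 0.21 for Cdkn1c (limma adjusted p = 0.163, n = 2 and 3).

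**Figure D4:**
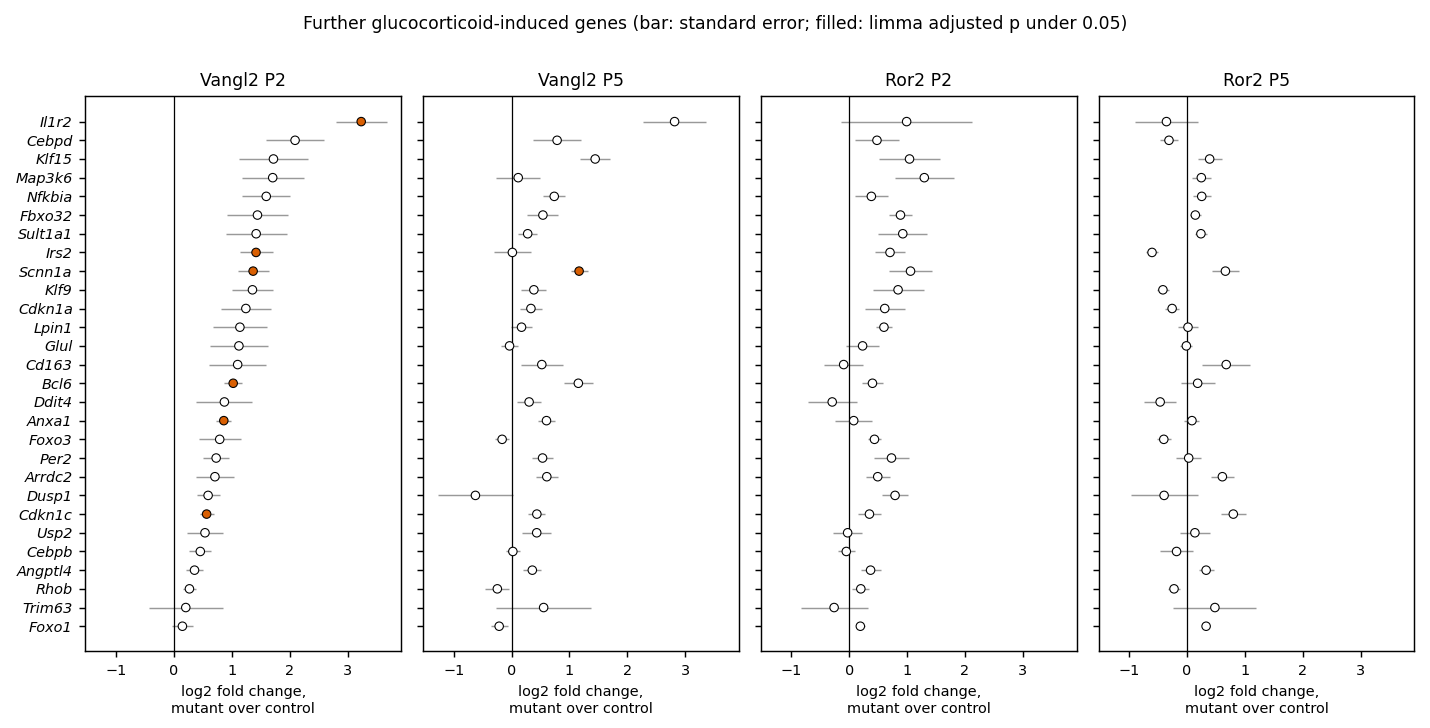
Log2 difference (mutant over control, on the log2(normalized count + 1) scale) of 28 further glucocorticoid-induced genes in the 4 tables, ordered by the Vangl2 P2 value. Points are limma estimates, bars 1 standard error, and filled points have a limma adjusted p under 0.05, which holds for 6 genes in Vangl2 P2 and for Scnn1a in Vangl2 P5.

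Genes that glucocorticoids are known to repress had mostly positive differences, except in Ror2 P5. Of 14 inflammatory genes, 13 were positive in Vangl2 P2 (median 1.18), 12 in Vangl2 P5 (median 0.90), 10 in Ror2 P2 (median 0.30) and 6 in Ror2 P5 (median -0.34). None was called by limma in any table, with 6, 8, 3 and 0 at an unadjusted p under 0.05, while DESeq2 called 3 in Vangl2 P2 and 1 in Ror2 P2 and edgeR none. The block called 5 in Vangl2 P5, among them Il1b, which encodes interleukin-1 beta, with 101, 68.2 and 80.6 normalized counts in the controls and 349, 170.1 and 229 in the mutants (log2 difference 1.53 ± 0.30, limma adjusted p = 0.0754, blocked 0.0126). The neutrophil attractant gene Cxcl1 had 22.1, 18 and 27.8 in the Vangl2 P2 controls and 97.2, 44.3 and 3686 in the mutants, and Cxcl2 had 7.37, 6.64 and 1.92 and 64.1, 32.5 and 1315. Mutant 3, the lung in which Mt1 and Mt2 were highest, was far above the other mutants for both. The log2 differences were 3.45 ± 1.41 for Cxcl1 and 4.64 ± 1.24 for Cxcl2 (limma adjusted p = 0.203 and 0.0842).

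Neutrophil markers moved with the Vangl2 mutants. Of 8 marker genes, 6 rose in Vangl2 P2 and 3 in Vangl2 P5 by the limma test, and their summed level was 3143 to 4859.8 in the controls and 8218 to 12709 in the mutants at P2, and 3335 to 4538 in the controls and 9080.1 to 20731 in the mutants at P5. Elane, a granule protease gene, stayed at or under 11.4 normalized counts in both tables. Within the Vangl2 P2 mutants the sum was 8218 in mutant 1, 9657 in mutant 2 and 12709 in mutant 3. This is the reverse of the order of the medians of the 10 genes. Gene by gene, mutants 2 and 3 were each the lowest mutant for 5 of the 10, and Mt1 and Mt2 were highest in mutant 3. In Ror2 P2 the sum was 4846 to 24309.7 in the controls and 6000.0 to 7719.7 in the mutants, with no marker called, and the highest lung was control 3. Il1r2 in the Ror2 P2 table was likewise high in control 3, at 164 normalized counts against 9.28 and 10.1 in the other controls. The part of neutrophils in the values of Il1r2 and the inflammatory genes was not tested.

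Every mutant lay above every control for 14.6% of all genes in Vangl2 P2 and 13.2% in Vangl2 P5. In Ror2 P5 this held for 13.7% of genes with 6 lungs and 19.3% of genes with 5. Among other cells of the lobe, the 4 club and airway markers were above every control in all 3 mutants in these 3 tables. Their summed level was 123951 to 154045 in the controls and 218457 to 248653 in the mutants in Vangl2 P2, 55749 to 107205 in the controls and 178501 to 226164 in the mutants in Vangl2 P5 and 71223 to 77240.4 in the controls and 127741 to 244208 in the mutants in Ror2 P5, and limma called none of them (4 of 4 had an unadjusted p under 0.05 in each, and DESeq2 called 3 in Vangl2 P2 and edgeR none, while the block called 4 in Vangl2 P5). In Ror2 P2 the groups of all 4 club and airway markers overlapped, and 2 of the 4 had negative differences. Of the 7 alveolar type II markers, Sftpa1 and Slc34a2 rose in Vangl2 P2 by the limma test. Of the 6 type I markers Hopx rose there, and of the 6 myofibroblast and smooth muscle markers Myh11 fell. The summed level of the type II markers was 340210.0 to 379937 in the controls and 360786 to 486639 in the mutants there, that of the type I markers 67026 to 80304 in the controls and 83752 to 110262 in the mutants, and that of the myofibroblast markers 31838 to 38544 in the controls and 20066 to 31603 in the mutants. In Ror2 P2, 5 of the 6 macrophage markers had negative differences (median -0.26). In the Vangl2 P5 mutants all 6 were above every control, as for 13.2% of all genes. Their sums there were 15796 to 25736 in the controls and 37070.0 to 49216 in the mutants. Limma called 0 of them, or 4 with the block, and 6 had an unadjusted p under 0.05. All 6 endothelial markers had negative differences in that table, with sums of 66077 to 73186 in the controls and 37625 to 60688 in the mutants (0 called by limma, 5 at an unadjusted p under 0.05, 1 called with the block).

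Summed matrix fibroblast markers, most of whose counts are of collagen genes and Fn1, were 172626 to 187758 in the controls and 131853 to 142962 in the mutants in Vangl2 P2, and 203432 to 236117 in the controls and 100945 to 185236 in the mutants in Vangl2 P5. In the Ror2 line they were 179943 to 190367 in the controls and 126325 to 169559 in the mutants at P2, and 205700.0 to 213338 in the controls and 149186 to 187255 in the mutants at P5 (2 controls). The mutant sums lay below those of the controls in all 4 tables. Of the 6 genes 4, 5, 4 and 6 had negative differences, and limma called 1, Col1a1 in Vangl2 P2. Tcf21, a fibroblast transcription factor gene, was positive in 3 tables and Pdgfra in both P2 tables. Erythroid sums in Vangl2 P2 were 41561 to 119110.0 in the controls and 21095 to 35131 in the mutants, with 1 of 4 called lower. Lymphocyte markers, of interest since Zbtb16 also marks innate-like T cells, were not called in any table (limma, 6 genes), with 1 at an unadjusted p under 0.05, in Ror2 P5. Mutant 3 of Vangl2 P5, the lung in which Fkbp5 stood far out, was also far out for the T cell receptor complex genes Cd3e and Cd3d. Cd3e had 24.6, 47 and 50.4 normalized counts in the controls of that table and 56.8, 31.3 and 1090.2 in the mutants, and Cd3d had 24.6, 22.3 and 37.3 and 51.3, 28 and 886. The lymphocyte sums were 428 to 881 in the controls and 419 to 2467 in the mutants. The part of these cells in the values of the 10 genes was not tested.

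The gene lists around the single members were then read in the same way. Over all 9 lists, which hold 150 genes outside the 10, 14 of 149 tested rose in Vangl2 P2 and none fell, against 3.59% of all genes called in either direction. The count was 0 without any one of the 3 controls, 5 without mutant 2 and 46 without mutant 3. In Vangl2 P5 it was 3 of 149, or 23 with the block, and in Ror2 P2 it was 0 (43 at an unadjusted p under 0.05, 20 by DESeq2, 0 by edgeR). Without Ror2 P2 mutant 2, 24 were called. In Ror2 P5, 1 of 150 fell, none was called without control 1, 2 or 3 or without mutant 2, and 10 were called without mutant 3. In Vangl2 P5 no list gene was called without control 2, control 3 or mutant 3, and 1 was without mutant 1 or mutant 2.

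Genes of fasting and fatty acid oxidation, the setting in which Pdk4 acts, gave calls in both Vangl2 tables. Acot1, an acyl-CoA thioesterase gene, had 415, 274 and 325 normalized counts in the Vangl2 P5 controls and 875, 698 and 810.5 in the mutants. It rose by 0.92 ± 0.20 at P2 and 1.25 ± 0.19 at P5 (limma adjusted p = 0.0476 and 0.0381). In the Ror2 line limma called no gene of this list (5 at P2 and 8 at P5 had an unadjusted p under 0.05), while at P2 DESeq2 called 2 and edgeR 0, and the groups of Acot1 did not overlap in either table. For Acot1 the Ror2 differences were 1.10 ± 0.23 at P2 and 0.71 ± 0.10 at P5 (limma adjusted p = 0.203 and 0.0567). The list's medians over 18 genes were 0.25, 0.10, 0.15 and 0.08 in Vangl2 P2, Vangl2 P5, Ror2 P2 and Ror2 P5.

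Among clock genes, the neighbours of Per1, Npas2 rose in Vangl2 P2, from 189, 236 and 212 in the controls to 870.3, 476 and 407 in the mutants, by 1.38 ± 0.27 (limma adjusted p = 0.0396). It encodes a partner of BMAL1 that can stand in for CLOCK. Bhlhe40, a clock repressor gene, fell in Ror2 P5 from 1080.4 and 1127 in 2 controls to 664, 606 and 638 in the mutants, by -0.80 ± 0.08 (limma adjusted p = 0.0446, and 0.0204 to 0.61 over the alternatives). In that table Per1 was also lower in every mutant. No other gene of the 18 was called by limma without the block in either table, while DESeq2 called 5 and edgeR 1 in Vangl2 P2. None was called by limma in Vangl2 P5 or Ror2 P2 without the block (6 and 3 at an unadjusted p under 0.05, and 2 by DESeq2 and 0 by edgeR in Ror2 P2). The block called Nfil3 in Vangl2 P5, a repressor gene of the clock's output, with a log2 difference of -0.56 ± 0.24 (limma adjusted p = 0.26, blocked 0.0348). The medians were 0.44, 0.21, 0.18 and 0.05 in the order of tables above.

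Metal response genes, the list drawn up around Mt1 and Mt2, were not called by limma in any table without the block, which called 1 in Vangl2 P5 and 1 in Vangl2 P2. Their medians over 8 genes were 0.17, 0.00, 0.16 and 0.02, and 2, 2, 2 and 1 had an unadjusted p under 0.05, with 1 called by DESeq2 and 0 by edgeR in Vangl2 P2 and 0 by both in Ror2 P2. Among those with a mean of at least 50 normalized counts, Slc39a8, a zinc importer gene, had the largest difference, 0.76 ± 0.17 in Vangl2 P2 (limma adjusted p = 0.0564), from 4246, 3706 and 3782 in the controls to 8720.5, 6201 and 5355 in the mutants. Slc30a1, the zinc exporter gene and a standard MTF1 target, had differences of 0.20 ± 0.13 and -0.03 ± 0.20 in the Vangl2 tables (limma adjusted p = 0.392 and 0.959), and it was named after its values were seen.

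For the genes around Hif3a and Errfi1, limma without the block made calls in Vangl2 P2 only. Adm, the hypoxia-induced vasodilator peptide gene, rose from 48.4, 68.3 and 96.7 to 457, 191 and 269.9, by 2.05 ± 0.37 (limma adjusted p = 0.0326), while the 14 hypoxia response genes had a median of 0.13. Ereg, which encodes an EGF receptor ligand, rose from 10.5, 12.3 and 8.62 to 56.8, 30.5 and 145, by 2.50 ± 0.54 (limma adjusted p = 0.0492), with a median of 0.38 over 15 genes of EGF receptor signalling. Of 18 immediate early genes 2 also rose, Fosl2 by 1.46 ± 0.29 and Klf6 by 0.84 ± 0.17 (limma adjusted p = 0.0388 and 0.0448). With the block that pairs the Vangl2 P5 lungs, 2 hypoxia response, 2 immediate early and 1 EGF receptor signalling gene were called in that table. The hypoxia response genes were Slc2a1, a glucose transporter gene (0.86 ± 0.22, limma adjusted p = 0.115, blocked 0.0184), and Bnip3, a mitophagy gene (0.72 ± 0.48, limma adjusted p = 0.458, blocked 0.0303). The immediate early genes were the transcription factor genes Egr1 (-1.82 ± 0.53, limma adjusted p = 0.137, blocked 0.0467) and Egr3 (-1.40 ± 0.86, limma adjusted p = 0.421, blocked 0.0348). The gene of the EGF receptor signalling list was Socs3, an inhibitor of cytokine signalling (0.66 ± 0.16, limma blocked adjusted p = 0.0193). These log2 differences and standard errors are of the fit without the block. In Ror2 P2, DESeq2 called 3, 4 and 2 genes of these lists in the same order and edgeR 0 of each. The median of the immediate early genes was 0.60 in Vangl2 P2, -0.14 in Vangl2 P5, 0.43 in Ror2 P2 and -0.31 in Ror2 P5.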

How the data were processed

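Left lung lobes of 24 mice, 3 in each of 8 groups, were homogenized in TRIzol, RNA was purified on RNeasy columns, and libraries were sequenced on an Illumina HiSeq. The submitters' processing notes name mm10 and DESeq2. The aligner, the counter and the annotation are not given in the sources used here. The authors deposited 1 table for each line and day, with a signal per gene and lung, the read count divided by a size factor made within that table. In all 24 lungs 100% of the values came out as whole reads within 0.02. The tables also hold log2 fold changes, scores and p-values of the authors' own comparisons, deposited beside the counts, and these were not used.

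Groups follow the sample titles. Labels do not say more of the replicates than that they are separate lungs, so p-values measure the spread between these lungs. Genes that reached a normalized count of 1 in 3 or more of the 6 lungs were fitted with limma 3.58.1 (R 4.3.3, empirical Bayes with trend) on log2(normalized count + 1), each table alone, with p-values adjusted by Benjamini-Hochberg across every gene in the fit and a threshold of 0.05. A fold change on this scale understates that of low genes. In the Ror2 P5 table, 8076 genes on chromosomes 5 to 9 and X were set to missing in control 1. The limma fit of each table and the edgeR and DESeq2 fits of the P2 tables were tested on data simulated with a fixed dispersion. Other steps were not tested in this way.

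Alternatives were a pseudocount of 0.5 or 8, no filter, TMM scaling, equal totals, a replicate block, each lung left out, and, on the recovered reads of the P2 tables, edgeR 4.0.16 and DESeq2 1.42.0. Lungs of the same number in the Vangl2 P5 table deviated together from their group means (r = 0.38, 0.34 and 0.24). On these correlations alone the number was treated as a pairing there. No label gives a pairing, so the blocked calls rest on that assumption.

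The 10 genes and the 9 gene lists and 12 marker lists were chosen with earlier results of these data known. Named list genes were, for each list and table, up to 3 in each direction with the lowest adjusted p past the threshold, or, with none, the 2 with the largest difference among genes with a mean of at least 50 normalized counts. The genes most like the 10 were the top 5 by Pearson's r. Receptor, HSP90 and 11-beta-hydroxysteroid dehydrogenase genes and the deleted genes were named in each case. Genes given as further examples were chosen after their values were seen. In Vangl2 P5 these were Klf15, Nfkbia, Anxa1, Cd3e and Cd3d, and genes of the clock, hypoxia, immediate early and EGF receptor signalling lists. The others were Acot1 in the Ror2 tables, Slc30a1, and Il1r2 in control 3 of Ror2 P2. The adipocyte and cardiac muscle sums in Vangl2 P5 were also chosen after their values were seen. Values of 1 further list gene are not reported here.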

Additional observations from a re-analysis of the deposited data

How the results depend on the processing

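The log2 difference of each of the 10 genes stayed positive in Vangl2 P2 under all 14 alternatives. Leaving out a lung turned the sign of Errfi1 in Vangl2 P5 and of Per1 or Sgk1 in Ror2 P2, and in Ror2 P5 the sign of Errfi1, Fkbp5, Mt2, Pdk4 or Sgk1 turned under at least 1 alternative. With DESeq2 in place of limma, Vangl2 P2 gave 1991 genes, 5 of the 10 genes and 40 list genes, and Ror2 P2 gave 782, 3 and 20. With equal totals per lung, Vangl2 P5 gave 193 genes and 4 of the 10, and Ror2 P5 gave 35 genes and 2 list genes. With the replicate block, Vangl2 P5 gave 1558 genes, 4 of the 10 and 23 list genes. In the other tables the block gave 795 genes and 1 of the 10 (Errfi1) in Vangl2 P2, 1 gene in Ror2 P2, and 1 gene and 0 list genes in Ror2 P5. Same-numbered lungs there correlated at -0.01 to 0.09 in Vangl2 P2, 0.03 to 0.21 in Ror2 P2 and -0.09 to 0.04 in Ror2 P5. With control 1 of Ror2 P5 as deposited, the median of the 10 genes was 2.81, since 6 of them are listed at 0 in that lung, and 1 gene and 0 list genes were called. Leaving out 1 lung at a time, genes called ranged from 1 to 2333 in Vangl2 P2, 0 to 54 in Vangl2 P5, 0 to 859 in Ror2 P2 and 0 to 794 in Ror2 P5. Of the 10 genes 0 to 5, 0 to 2, 0 to 5 and 0 to 3 were called, and of the list genes 0 to 46, 0 to 2, 0 to 24 and 0 to 10. The median of the 10 genes ranged from 0.92 to 1.84, 0.63 to 0.94, 0.31 to 1.03 and 0.07 to 0.18. Except as said for the deposited control, the cause was not tested. With 3 lungs in a group, calls rest on few residual degrees of freedom. Count tests on the P5 tables were not run.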
